A study of Homo sapiens with 6 samples.

Results

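Ribosomal protein mRNAs code for the proteins that, with the ribosomal RNAs, build the large (60S) and the small (40S) subunit of the cytosolic ribosome. Most of them are TOP mRNAs, whose transcripts start with a C followed by an unbroken run of pyrimidines, a feature known to let their translation be switched as a class by mTOR signaling. Staufen1 (Stau1), which recognises double-stranded RNA, is known to bind mRNAs and to be found with ribosomes. The cytosolic ribosomal protein mRNAs were taken from the array by their symbols, RPL or RPS followed by a number with the usual letters of named copies, together with RPLP0, RPLP1, RPLP2 and RPSA. They made up 87 of the 37879 targets, 54 for the large and 33 for the small subunit, with 1 target each.

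The study asked which mRNAs come down with Stau1 in mitosis. HEK293T cells, a transformed human embryonic kidney line, were transfected with an empty vector or with plasmids coding for Stau155-FLAG, a tagged form of the protein. All cells were held in prometaphase with nocodazole, a microtubule poison, at 50 ng/ml for 15 h by the sample labels (the methods give a longer time), and both groups were immunoprecipitated (IP) with anti-FLAG antibody. The RNA of 3 control IPs and 3 Stau1 IPs was hybridised to 6 Illumina bead arrays. The tagged protein came from a plasmid, so the comparison is about transfected Stau1 and not the cells' own. The labels do not say that the replicates came from separate cultures, so that the p-values measure only the spread between these arrays.

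The arrays were alike in median signal (87.9 to 101.7) and in detected targets (11635 to 13054), with a median of 41 beads per target. Detected means a detection p under 0.05 against the negative controls of the array. Of 8 markers of the HEK293 line, 7 were detected on all 6 arrays and PAX2 on 1. Of 8 mitotic markers, 8 were detected on all 6 arrays, and their median difference between the groups was -0.53 on the log2 scale. Their part in the results below was not tested. PTPRC, CD3E, HBB and ALB, markers of other cell types, were detected on none, with GFAP detected on 1, COL1A1 on 5 and PECAM1 on all 6 arrays. The arrays numbered 2 stood apart from their groups. Over the targets detected on all 6 arrays, control IP 2 correlated at 0.983 and 0.984 with Stau1 IP 1 and 3 and at 0.977 and 0.982 with control IP 1 and 3. Stau1 IP 2 correlated at 0.940 and 0.943 with Stau1 IP 1 and 3 and at 0.962 and 0.977 with control IP 1 and 3. Both arrays kept their labelled group, their values are given singly, and results are also given without both of them.

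The start of the transcript was read for 69 of the 87 genes from RefSeq promoters on GRCh38.p14. The windows shown hold 10 bases before the annotated start and 15 bases from it, on the strand of the gene, with the unbroken run of C and T from the start in capitals. They are given for the 6 members with the lowest moderated t of limma (RPL36AL, RPL26, RPS13, RPS29, RPLP2 and RPS12) and the 3 with the highest (RPL28, RPL38 and RPSA), to show the starts of members that differed in either direction. RPL22, the reference transcript of the study, and 2 copies, RPL26L1 and RPL7L1, follow. No run began at the annotated start of either copy, and RPS29 had a run of 1.
RPL26, chr17:8383179-8383203, minus strand: gcgtgtagttCTCTTCCCTTTTgcg
RPL26L1, chr5:172958719-172958743, plus strand: tccaggggtcggcgaacgaaacgcg
RPL36AL, chr14:49620612-49620636, minus strand: tcttccctttCCTgttaggcgagag
RPS13, chr11:17077653-17077677, minus strand: ctctcgctctCCTTTCgttgcctga
RPS29, chr14:49598696-49598720, minus strand: agcgcgcagcTggcagcggtggttg
RPS12, chr6:132814559-132814583, plus strand: cggatgaggcCTCTTTCCCTgccgc
RPLP2, chr11:809957-809981, plus strand: tcggcgccttCCTTTTCCTCCCTgt
RPL28, chr19:55385922-55385946, plus strand: cctcgccttcCTCTTTCCgtctcag
RPL38, chr17:74203668-74203692, plus strand: aagtctcgttCTTTTTCgtcctttt
RPSA, chr3:39406710-39406734, plus strand: tgccgcctgtCTTTTCCgtgctacc
RPL22, chr1:6199581-6199605, minus strand: cgctcacctcCCTTTCTaactccgc
RPL7L1, chr6:42879606-42879630, plus strand: gtgcggcgccgtagctaggagcgga

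Members that were lower and members that were higher in the Stau1 IP included such starts. Over the 69 genes, 49 (71.0%) started with C, against 15.0% of 27305 promoters of the same length, and 44 (63.8%) carried a run of at least 5 C or T from the start, against 5.2%. A run of 5 was found in 13 of the 17 matched members whose Stau1 IP arrays all lay below the control IP arrays, in 3 of the 3 whose arrays all lay above, and in 28 of the other 49. An annotated start can miss the start used in these cells by a few bases, as in RPL36AL, where a longer pyrimidine stretch crossed it.

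As a group, the ribosomal protein mRNAs lay slightly lower in the Stau1 IP than in the control IP. The normalized log2 signal was below the control IP for 66 members and above it for 21, and the median difference over the 87 members was -0.14, against 0.0031 over all targets. No member passed an adjusted p of 0.05 in limma, and neither did any other target (0% of 37879). The methods' t-test with the same adjustment called 0 members too. At an unadjusted p under 0.05 in limma, 23 members (26.4%) were lower, beside 4.87% of all targets, and 3 (3.45%) were higher, beside 3.75%. When each array was centred on its median instead, 39 members were lower and 0 higher at the same p, beside 4.32% and 1.88% of all targets and 11.5% and 3.18% of those detected on all 6 arrays. This centring also put other bright targets lower, with a median of -0.25 over all 128 targets of a mean log2 signal of 14 to 15, next to -0.27 for the members among them. The arrays held bulk RNA recovered by IP and were set to a common distribution, so that a lower signal is a lower place within the recovered RNA. Less recovery per cell and fewer cells giving the transcript cannot be told apart.

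The 3 Stau1 IP arrays all lay below the 3 control IP arrays for 22 members (25.3%), beside 7.56% of all targets, and all above them for 3 members (3.45%), beside 6.6%. Most members were bright, and among the 9884 targets detected on all 6 arrays, 13.7% lay all below and 8.65% all above. Of the 87 members, 80 were detected on all 6 arrays, and 19 of these (23.8%) lay all below. At an unadjusted p under 0.05, 20 of the 80 (25%) were lower, beside 12.5% of the detected targets, and 3 were higher, beside 9.04%. When limma was run on the detected targets alone, only 9 of the same 80 were lower, beside 9.45%, and 1 was higher, beside 6.65%, so that the share of lower members was then close to that of the other detected targets. A difference of more than 2.5-fold in either direction, with an unadjusted p under 0.05 in limma, was met by 0 members. It was met by 1 target, 0.00264% of all and 0.0101% of those detected. The study's methods used the same thresholds of fold and p, but for enrichment only and with a different test. By its own rule the paper reports many more enriched transcripts. Why the numbers differ was not tested.

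The medians of the members on single arrays did not overlap between the groups. Relative to each target's mean over the 6 arrays, the median member stood at 0.15, 0.07 and 0.08 on control IP 1, 2 and 3. It stood at -0.04, -0.07 and -0.10 on Stau1 IP 1, 2 and 3. The arrays numbered 2 thus lay on the side of their labels for the median member. Before normalization the members carried 9.01%, 8.48% and 8.45% of the background-subtracted signal summed over all targets in the control IPs, against 7.43%, 8.78% and 7.47% in the Stau1 IPs. By this share Stau1 IP 2 lay among the control IP arrays, and the groups overlapped.

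**Figure D1:**
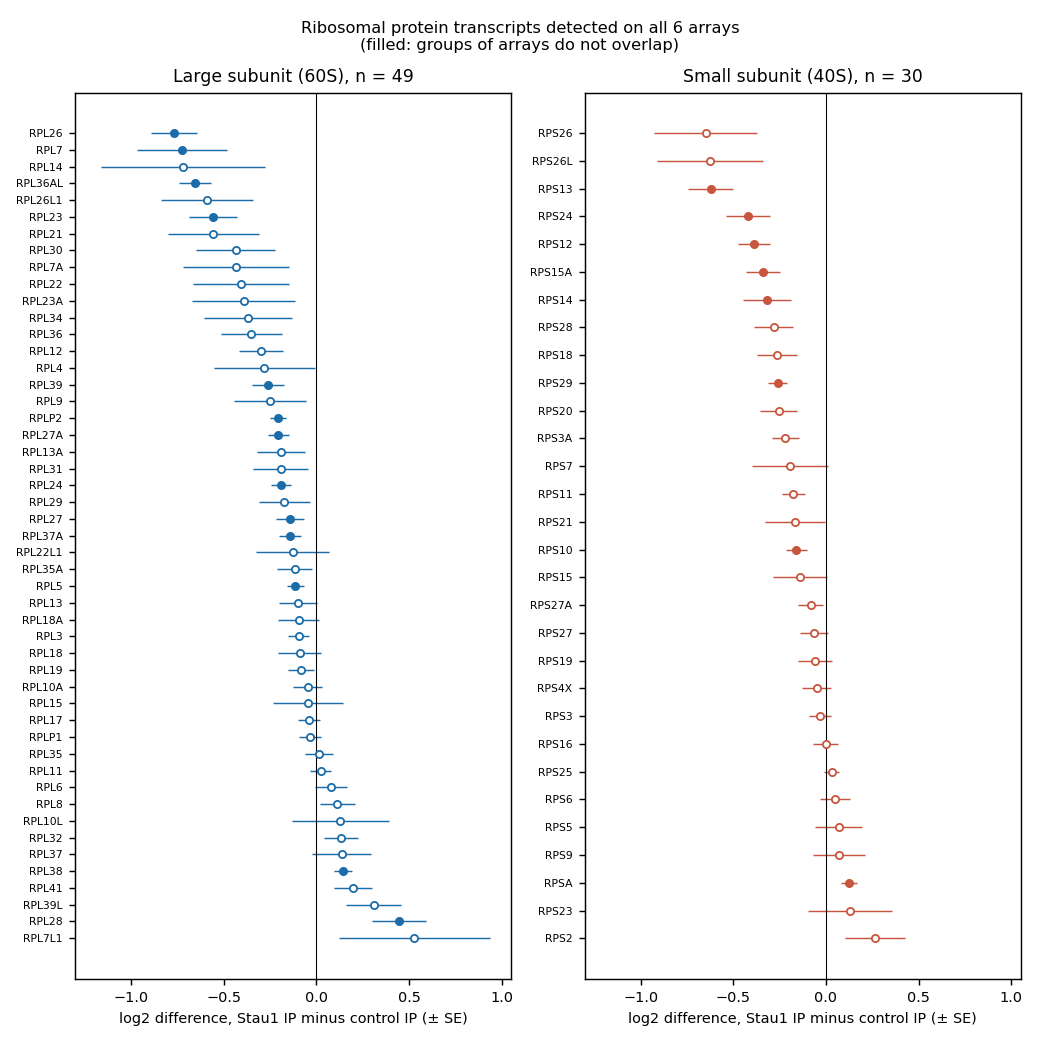
Difference in normalized log2 signal, Stau1 IP minus control IP, with its SE from limma, for 79 of the 80 members detected on all 6 arrays (49 large subunit, left; 30 small subunit, right; n = 3 arrays a group). Filled points mark members whose groups of arrays do not overlap. Most points lie left of 0, from RPL26 at -0.77 to RPL7L1 at 0.53.

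Among large subunit members, RPL36AL had the lowest moderated t. RPL36AL is a copy of RPL36A that codes for a nearly identical protein. Its normalized log2 signal was 13.77, 13.53 and 13.51 on control IP 1, 2 and 3, and 13.01, 12.98 and 12.85 on Stau1 IP 1, 2 and 3. Each Stau1 IP array lay below each control IP array, the arrays numbered 2 included. The difference was -0.66 ± 0.09 (SE), or 1.58-fold lower in the Stau1 IP, with an adjusted p of 0.165 in limma. Without the arrays numbered 2 it was -0.71, with an adjusted p of 0.037 in limma.

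RPL26, whose protein sits near the exit of the peptide tunnel and is known to bind p53 mRNA, had the lowest difference of the members detected on all 6 arrays. Its deposited signal was 16772, 14829 and 11037 on control IP 1, 2 and 3, and 7486, 8104 and 8547 on Stau1 IP 1, 2 and 3. The Stau1 IP arrays all lay below the control IP arrays, which themselves ran over a wide range. On the normalized log2 scale the difference was -0.77 ± 0.12 (SE), or 1.70-fold lower in the Stau1 IP, with an adjusted p of 0.192 in limma. RPL26 was also lower in the Stau1 IP without the arrays numbered 2, at -0.71, with an adjusted p of 0.0916 in limma.

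RPL23, which binds MDM2 when free of the ribosome, read 13.10, 12.74 and 12.96 on the control IP arrays in log2 signal. On the Stau1 IP arrays RPL23 read 12.42, 12.54 and 12.16. The groups were apart, and Stau1 IP 2 was the array nearest to the control IPs. The difference was -0.56 ± 0.13 (SE), with an adjusted p of 0.327 in limma, and -0.74 with an adjusted p of 0.0291 in limma without the arrays numbered 2. RPL24, a protein of the face that joins the subunits, differed by only -0.19 ± 0.05 (SE), on log2 signals of 15.27, 15.16 and 15.22 against 14.94, 15.08 and 15.05. RPL24 shows that small differences also left the groups apart where the arrays of a group lay close.

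The acidic stalk of the large subunit, which recruits the GTPase factors of translation, gave different values for its 3 proteins. RPLP2 read 15.24, 15.14 and 15.23 in log2 signal in the control IPs, against 14.95, 15.01 and 15.02 in the Stau1 IPs. Its groups were apart, with a difference of -0.21 ± 0.04 (SE) and an adjusted p of 0.261 in limma. RPLP1, its partner in the stalk dimers, differed by -0.03 ± 0.06 (SE), with arrays that overlapped. RPLP0, the base of the stalk, read 12.38, 12.24 and 11.75 in the control IPs, against 12.58, 11.11 and 12.43 in the Stau1 IPs. Stau1 IP 2 lay far below all other arrays, and the difference of -0.08 ± 0.42 (SE) became 0.44 without the arrays numbered 2. RPLP0 was detected on 5 of 6 arrays.

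Other large subunit members showed a gap that rested on Stau1 IP 1 and 3. RPL14, chosen after its values were seen, read 12.78, 12.04 and 12.43 in log2 signal in the control IPs, against 11.16, 12.65 and 11.28 in the Stau1 IPs. RPL4, a core protein of the 60S subunit that was chosen in the same way, read 15.01, 14.73 and 15.02 against 14.26, 15.25 and 14.41. Stau1 IP 2 lay within the range of the control IP arrays for RPL14 and above it for RPL4. Their differences over 6 arrays were -0.72 ± 0.44 (SE) for RPL14 and -0.28 ± 0.27 (SE) for RPL4. Without the arrays numbered 2 they were -1.39 and -0.68, each with an adjusted p under 0.05 in limma (0.0123 and 0.013).

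RPL22 and RPS6 serve the study as reference transcript and as ribosome marker. RPL22, whose protein is known to bind viral RNA hairpins as well as ribosomal RNA, read 11.67, 11.57 and 11.14 in log2 signal in the control IPs, against 11.38, 10.55 and 11.23 in the Stau1 IPs. Only Stau1 IP 2 lay below every control IP array, the other two lay within their range, and the difference was -0.41 ± 0.26 (SE). Without the arrays numbered 2 it was -0.10, so its size rested on them. RPS6, the 40S protein phosphorylated by S6 kinases, read 15.07, 15.19 and 15.30 against 15.28, 15.12 and 15.32. Its groups overlapped, with a difference of 0.05 ± 0.08 (SE), which turned to -0.06 when arrays were centred on their medians.

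Among small subunit members, RPS13, RPS29, RPS12 and RPS15A were among the 10 members with the lowest moderated t. RPS13, which binds the central domain of 18S rRNA, read 13.16, 13.05 and 13.12 in log2 signal in the control IPs, against 12.68, 12.22 and 12.56 in the Stau1 IPs. The control IP arrays lay close together and above all the Stau1 IP arrays, of which Stau1 IP 2 was the lowest. The difference was -0.62 ± 0.12 (SE), or 1.54-fold lower in the Stau1 IP, with an adjusted p of 0.246 in limma. Without the arrays numbered 2 it was -0.52, with an adjusted p of 0.0198 in limma.

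RPS12, a protein of the 40S beak region, read 14.44, 14.45 and 14.53 against 14.21, 14.14 and 13.90, for a difference of -0.39 ± 0.09 (SE) in log2 signal. RPS29, a zinc-binding protein of the 40S head, read 13.92, 13.97 and 13.80 against 13.66, 13.62 and 13.64, for -0.26 ± 0.05 (SE). RPS15A read 13.64, 13.46 and 13.44 against 13.32, 13.05 and 13.15, for -0.34 ± 0.09 (SE). For these 3 members all Stau1 IP arrays lay below all control IP arrays, with adjusted p of 0.302, 0.251 and 0.376 in limma.

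On 3 members the Stau1 IP arrays all lay above the control IP arrays, and no more than 1.36-fold. RPL28, a 60S protein found in animals and not in budding yeast, read 10.46, 10.72 and 10.54 in log2 signal in the control IPs, against 11.10, 10.73 and 11.22 in the Stau1 IPs. The arrays numbered 2 were nearly equal, and the difference of 0.45 ± 0.14 (SE; adjusted p of 0.467 in limma) was 0.67 without them, with an adjusted p of 0.0136 in limma. RPL38, known for its part in the translation of Hox mRNAs, read 15.18, 15.31 and 15.32 against 15.43, 15.40 and 15.43, for 0.14 ± 0.05 (SE; adjusted p of 0.468 in limma). RPSA, the 40S protein also known as a laminin receptor, read 14.20, 14.33 and 14.28 against 14.41, 14.41 and 14.37, for 0.12 ± 0.04 (SE; adjusted p of 0.512 in limma). The difference of RPSA turned to -0.09 when arrays were centred on their medians. RPL41, the shortest ribosomal protein, had overlapping groups and a difference of 0.20 ± 0.10 (SE), which was near 0 under that centring.

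**Figure D2:**
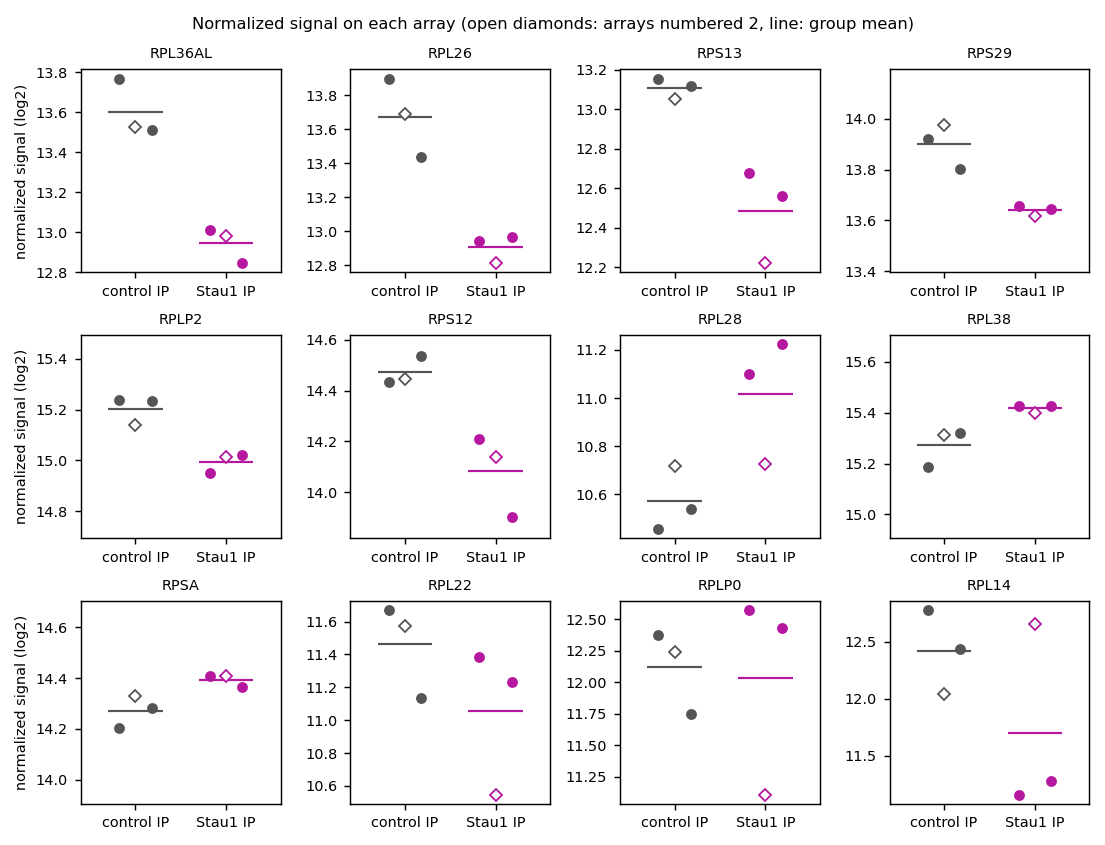
Normalized log2 signal of 12 members on each of the 6 arrays (y axes differ between panels and do not start at 0), with control IP in grey, Stau1 IP in purple, open diamonds for the arrays numbered 2 and a line for the mean of 3 arrays. RPL36AL, RPL26 and RPS13 keep both groups apart, whereas Stau1 IP 2 lies low for RPL22 and RPLP0 and high for RPL14.

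Copies and parent genes of the family did not share 1 direction. Of 9 pairs, 4 had both genes detected on all 6 arrays, and how far a probe also reads the near copy was not tested. RPL26 and RPL26L1 were both lower, at -0.77 ± 0.12 and -0.59 ± 0.25 (SE) in log2 difference. RPL22 and RPL22L1 were at -0.41 ± 0.26 and -0.13 ± 0.20 (SE), each with overlapping groups. RPL39, a small protein of the tunnel wall, was at -0.26 ± 0.09 (SE) with groups apart, while its testis-enriched copy RPL39L was at 0.31 ± 0.15 (SE) with overlapping groups. For RPL7 and RPL7L1, a nucleolar relative, the values were -0.72 ± 0.24 and 0.53 ± 0.41 (SE). RPL7 read 13.02, 12.35 and 12.43 in log2 signal in the control IPs, against 11.65, 12.27 and 11.72 in the Stau1 IPs. The deposited signal of RPL7L1 was 5549, 13335 and 8177 in the control IPs, against 13513, 8024 and 15238 in the Stau1 IPs. RPL7 was lower on Stau1 IP 1 and 3 and RPL7L1 higher on the same arrays, while the arrays numbered 2 ran the other way for RPL7L1. No test was made of the difference within a pair.

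In the other 5 pairs at least 1 gene was not detected on all 6 arrays. RPS27, known also as metallopanstimulin, was at -0.06 ± 0.07 (SE), and its p53-induced copy RPS27L was below the detection threshold on 6 arrays despite deposited signals of 1019 to 2301. RPL36A was detected on 1 array. RPL3 was at -0.09 ± 0.06 (SE), and its muscle copy RPL3L was detected on none. RPL10 was detected on none, while its testis copy RPL10L was at 0.13 ± 0.26 (SE), a sign that turned to -0.23 without the arrays numbered 2. RPS4X was at -0.05 ± 0.08 (SE), and RPS4Y1 was detected on 3 control IP and 0 Stau1 IP arrays, with measured means near background of 7.27 and 7.12. The remaining member not detected throughout was RPL13L, detected on 1 array.

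Large and small subunit members differed from the control IP to a similar extent. The median difference was -0.13 over the 54 large and -0.16 over the 33 small subunit members, 0.025 apart. On single arrays the median large minus the median small member was -0.001, -0.005 and -0.01 on control IP 1, 2 and 3, and 0.02, -0.10 and 0.09 on Stau1 IP 1, 2 and 3. The Stau1 IP arrays themselves had opposite signs, a spread wider than the gap between subunits. At an unadjusted p under 0.05 in limma, 10 large (18.5%) and 13 small (39.4%) subunit members were lower, beside 4.87% of all and 12.5% of detected targets, and 2 and 1 were higher, beside 3.75% and 9.04%. All Stau1 IP arrays lay below all control IP arrays for 12 large (22.2%) and 10 small (30.3%) subunit members, beside 7.56% of all and 13.7% of detected targets. The gap turned to -0.0036 under the neqc normalization, to -0.02 under median centring and to -0.03 with the spline on control IP 1.

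Within the subunits, proteins that are neighbours in the ribosome had differences of both signs. Of the 7 proteins at the tunnel exit, 6 were below 0, and the groups were apart for RPL26 and RPL39. Of the 6 proteins at the mRNA exit channel, 4 were below 0, and their range ran from RPS26 at -0.65 ± 0.28 (SE) to RPSA at 0.12. RPS2 and RPS3, which line the mRNA entry, were at 0.27 ± 0.16 and -0.03 ± 0.06 (SE). RPL5 and RPL11, which form a particle with 5S rRNA that inhibits MDM2, were at -0.11 ± 0.05 and 0.02 ± 0.06 (SE). Among 15 genes mutated in Diamond-Blackfan anaemia, 14 were below 0 and 7 (46.7%) had all Stau1 IP arrays below all control IP arrays, beside 25.3% of all members, 7.56% of all targets and 13.7% of those detected on all 6 arrays. The median of these 15 was -0.16, near that of all members.

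The size of the difference varied with the signal of the probe, which is not a measure of how abundant one mRNA is against another. The brighter 44 members had a median difference of -0.09 and the dimmer 43 one of -0.30. Spearman's rho between difference and mean signal was 0.30 and Pearson's r 0.12 over the 87 members, which share the same 6 arrays, and 0.33 and 0.13 over the 80 detected on all arrays. The correlation is across genes, which are not independent replicates. Dimmer members also spread more between replicates, with a median SD of 0.20 in the control IP and 0.29 in the Stau1 IP, against 0.08 and 0.09 for the brighter ones. Members whose arrays lay all below were split evenly, 12 of the 44 brighter and 10 of the 43 dimmer. The share over all targets was 7.56%, and 13.7% over those detected on all 6 arrays. It was 5.72% of all targets up to a mean log2 signal of 8, and 14.2% to 19.5% in the ranges above that.

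Members with a mean log2 signal of 12 to 13 stood lowest. All 11 of them were below 0, with a median of -0.56, against -0.10 over the 523 targets of that range. The 16 members between 13 and 14 had a median of -0.24, against -0.04 for 253 targets. Between 14 and 15 the median of 26 members was -0.06, next to -0.05 for 128 targets. Above 15 it was -0.09 for 12 members, against -0.03 for 35 targets, and between 10 and 12 it was -0.35 for 15 members, against -0.04 for 2198 targets. Of the 500 brightest targets, 57 were ribosomal protein mRNAs, as were 29 of the brightest 100. Per array, the dimmer members had medians of 0.30, 0.11 and 0.04 on control IP 1, 2 and 3 and -0.05, -0.11 and -0.14 on Stau1 IP 1, 2 and 3. Control IP 1 was thus the highest by far, and without it the gap between brighter and dimmer members fell from 0.21 to 0.096. The brighter members were at 0.01, 0.05 and 0.09 against -0.03, 0.02 and -0.07, where Stau1 IP 2 lay above control IP 1.

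**Figure D3:**
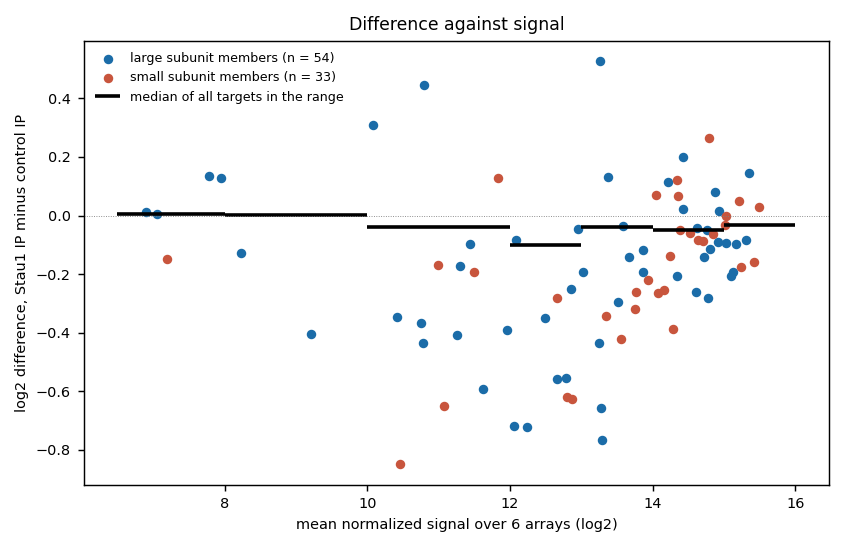
Log2 difference, Stau1 IP minus control IP, against the mean normalized log2 signal over 6 arrays for the 54 large and 33 small subunit members, with black bars for the median of all targets in each range of signal. Members between 12 and 13 have a median of -0.56, with most of them below the bar of -0.10, and those between 14 and 15 lie on both sides of theirs.

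The side on which the arrays numbered 2 fell differed between lower and higher members. Without these arrays, 45 members (51.7%) were lower on both Stau1 IP arrays than on both control IP arrays, beside 23% of all targets and 35.7% of those detected on all 6 arrays. Higher on both were 12 (13.8%), beside 23.4% and 32.4%. In limma on these 4 arrays, 12 members (13.8%) were lower at an adjusted p under 0.05, beside 2.62% of all and 8.89% of the detected targets, and 5 (5.75%) were higher, beside 3.95% and 12%. At an unadjusted p under 0.05, 33 (37.9%) were lower, beside 8.16% and 24.3%, and 10 were higher, beside 8.98% and 24.7%. The members higher at the adjusted p were RPL28, RPS2, RPL39L, RPL37 and RPL7L1. RPL37 had deposited signals of only 147 to 259, beside background medians of 78 to 90. Those lower at the adjusted p were RPL14, RPL4, RPL23A, RPL36, RPS13, RPS20, RPS18, RPL13L, RPL26L1, RPL23, RPL36AL and RPS26L. Of these, RPL13L was detected on 1 array. RPL13L, RPL37, RPL36, RPL23A, RPS18, RPS20, RPS2 and RPS26L had not been among the genes set to be named and are given because they were called here.

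Of the 45 lower members, both arrays numbered 2 lay nearer to their labelled group for 17 (37.8%), only control IP 2 for 21 (46.7%), only Stau1 IP 2 for 4 (8.89%) and neither for 3 (6.67%). Over the 3532 targets detected on all 6 arrays that were lower in the same way, the shares were 28.1%, 20.4%, 16.2% and 35.3%. In the 45 lower members the commonest pattern was a control IP 2 on its labelled side with Stau1 IP 2 on the other, and among the detected targets it was neither array on its side. Of the 12 higher members, both arrays lay on the labelled side for 1 (8.33%) and only control IP 2 for 3 (25%). Only Stau1 IP 2 did for 3 (25%), and neither for 5 (41.7%). Over the 3201 targets detected on all 6 arrays that were higher in the same way, the shares were 20.1%, 37.4%, 5.4% and 37.2%. The share for neither array was thus near that of the detected targets. Whether the labels of these arrays were exchanged was not tested.

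**Figure D4:**
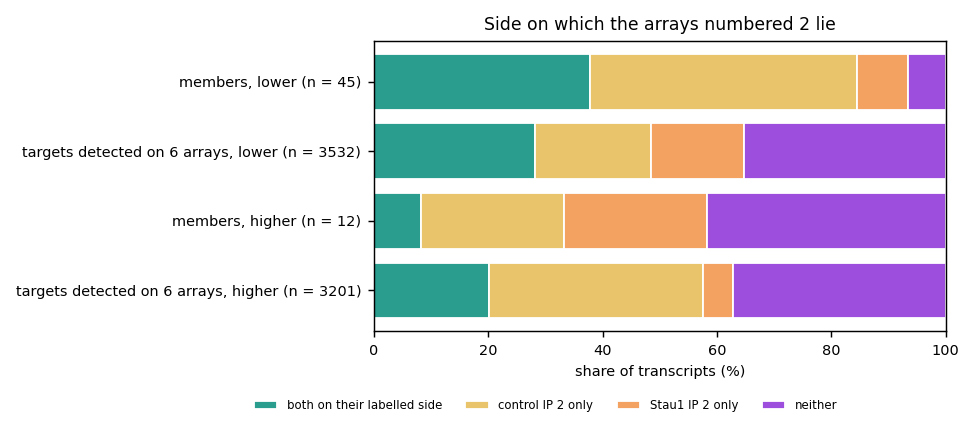
Share, in percent, of transcripts by the side on which control IP 2 and Stau1 IP 2 lay, nearer to their labelled group or to the other, for those whose arrays 1 and 3 were apart. For lower members (n = 45) both or only control IP 2 lay on the labelled side in 37.8% and 46.7%, against 28.1% and 20.4% of the lower targets detected on 6 arrays (n = 3532).

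Other mRNAs of the TOP class and of ribosome production were read beside them. Of 30 other TOP mRNAs, 25 were below 0 with a median of -0.19. At an unadjusted p under 0.05 in limma 9 (30%) were lower, beside 4.87% of all targets and 12.5% of those detected on all 6 arrays. In the other direction 0 were higher, beside 3.75% and 9.04%. NACA, a subunit of the nascent polypeptide-associated complex, was at -0.42 ± 0.09 (SE), its partner BTF3 at -0.30 ± 0.08 (SE) and the elongation factor EEF1B2 at -0.35 ± 0.09 (SE), each with groups apart. EEF1A1 and EEF2, the main elongation factors, were at -0.06 ± 0.07 and -0.07 ± 0.06 (SE). The members' share of lower calls, 26.4%, was close to that of these mRNAs, and so was their median difference. The likeness was not particular to the TOP class. The share was 22.1% for 77 mRNAs of the mitochondrial ribosome, with a median of -0.21. It was 31.4% for 35 mRNAs of ribosome production, with a median of -0.33.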

How the data were processed

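RNA of 3 control IPs and 3 Stau1 IPs was measured on Illumina HumanWG-6 bead arrays, grouped by the sample labels. The authors deposited, for 37879 targets per array, signal intensities as exported by BeadStudio without background subtraction or normalization, as 1 value per target. The same deposited table gives a detection p-value, the number of beads and the standard error between beads, which is an intensity. A bright target can lack detection, as RPS27L did.

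Further steps used limma 3.58.1 and mgcv 1.9.3 under R 4.3.3, and figures were drawn in Python 3.11.15 with matplotlib 3.10.9. Negative controls were stood in for by 200 targets, those of detection p closest to 0.5, and their median was subtracted. A variance stabilizing transformation was fitted to the bead SD over 500 bins without the lowest 33.3% of signals, and acted as a log2 of the signal plus a constant of 115 to 160, which shrinks differences of dim targets. A robust spline with 10 knots mapped each array on control IP 3. The study's own normalization software was not run.

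Groups were compared by lmFit and eBayes over all targets with Benjamini-Hochberg adjustment. The number of arrays limits the precision. This chain was tested on simulated data. Alternatives were other backgrounds, transformations, normalizations, filters, tests and thresholds, and leaving out arrays.

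Members, lists and tests were chosen with earlier results of these data known. Named genes were RPL22, RPS6, RPSA, the stalk proteins, the 9 pairs of copies, and the 10 members with the lowest and the 5 with the highest moderated t. RefSeq promoters on GRCh38.p14 matched 69 of 87 members by symbol. Single values of 1 member are not reported here.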

Additional observations from a re-analysis of the deposited data

How the results depend on the processing

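The median difference of the members was below 0 under all alternatives run. The adjusted p was passed by 0 members except without between-array normalization (2, where the median of all targets shifted by 0.11) and without both arrays numbered 2 (17). In the latter fit 2.62% of all targets were lower and 3.95% higher at the adjusted p in limma. At an unadjusted p under 0.05 in limma, 10 members were higher there, beside 8.98% of all targets. Against 23 lower and 3 higher members at that p, median centring gave 39 and 0 with a median difference of -0.28 (all targets detected on 6 arrays: 11.5% lower, 3.18% higher), and no between-array normalization gave 14 lower. The spline on control IP 1 gave 1 higher and a median of -0.20. A fit on the targets detected on all 6 arrays gave 9 and 1 of 80, beside 9.45% and 6.65% of those targets. The targets detected on at least 3 arrays gave 12 and 1, eBayes with trend 1 higher, the methods' t-test 13 lower and array weights 5 higher. Shares over all targets were taken only for the main fit, median centring, the detected targets alone and the fit without both arrays numbered 2. The other counts in this paragraph cannot be set against such a share. A fold of 2.5 left 0 and 0, and a fold of 1.5 left 5 and 0. Leaving out each array gave 13 to 32 lower and 0 to 7 higher members and medians of -0.18 to -0.13. The lower count was 15 without control IP 1 and 13 without Stau1 IP 3. The higher count was 1 without control IP 1, 0 without Stau1 IP 1 or 3 and 7 without Stau1 IP 2, and the median was -0.18 without control IP 3. In the same runs the gap between brighter and dimmer members ranged from 0.096 (without control IP 1) to 0.28, and that between large and small subunit from -0.02 (without control IP 1) to 0.05, and it was -0.03 with the spline on control IP 1.

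The replicate number was tried as a block. Deviations of same-numbered arrays correlated at -0.45, -0.77 and -0.39. These values cannot show whether the numbers pair arrays. If labels were exchanged between the groups, which was not tested, negative values could arise with or without pairing. The block gave 15 lower and 0 higher members with 0 past the adjusted p, and the shares over all targets were not taken for it.

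Of 605 values for 29 named genes under the alternatives, 15 changed sign and 8 newly passed the adjusted p. Median centring turned RPS6 (-0.0556), RPSA (-0.0887) and RPL41 (-0.0016), and array weights turned RPLP0 (0.2131) and RPL10L (-0.0027). Without both arrays numbered 2, RPLP0 was 0.4392, RPLP1 0.0173 and RPL10L -0.2284. Leaving out each array in turn, RPS6 ranged from -0.008 to 0.1108 (negative without control IP 1), RPLP0 ranged from -0.3535 to 0.38 (positive without control IP 1 or Stau1 IP 2), RPLP1 ranged from -0.0806 to 0 (0 without Stau1 IP 2), RPL10L ranged from -0.1166 to 0.3154 (negative without Stau1 IP 2), RPS4X ranged from -0.0946 to 0.0281 (positive without control IP 1) and RPL22L1 ranged from -0.3169 to 0.0242 (positive without Stau1 IP 3). The cause was not tested.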

Other observations

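The mRNAs of the mitochondrial ribosome, a separate set of proteins, were read in the same way. Of 77, 59 were below 0 with a median log2 difference of -0.21, and 73 were detected on all 6 arrays. All Stau1 IP arrays lay below all control IP arrays for 19 (24.7%), beside 7.56% of all targets and 13.7% of those detected on all 6 arrays. MRPL13 was at -0.87 ± 0.12 (SE) and MRPL33 at -1.01 ± 0.19 (SE), with adjusted p of 0.166 and 0.239 in limma. On single arrays the median mitochondrial member stood at 0.21, -0.03 and 0.10 on control IP 1, 2 and 3 and at -0.13, 0.04 and -0.21 on Stau1 IP 1, 2 and 3. The arrays numbered 2 thus overlapped between the groups for this set.

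Of 35 mRNAs of ribosome production, 27 were below 0 with a median of -0.33. At an unadjusted p under 0.05 in limma 11 (31.4%) were lower, beside 4.87% of all targets and 12.5% of those detected on all 6 arrays. Higher at that p were 3 (8.57%), beside 3.75% and 9.04%. BRIX1 and LTV1, factors of 60S and 40S assembly, were at -0.98 ± 0.24 and -0.84 ± 0.19 (SE). DKC1, the pseudouridine synthase of box H/ACA particles, was at -0.52 ± 0.12 (SE). SBDS, which takes part in the release of EIF6 from the 60S subunit, was at -0.75 ± 0.18 (SE), whereas EIF6 was at 0.34 ± 0.12 (SE). BYSL, a factor of 40S assembly, was at 0.28 ± 0.09 (SE) with all Stau1 IP arrays above the control IP arrays.

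Of 8 targets named as pseudogenes of the family, 3 were detected on all 6 arrays. Over the 8, detected or not, all Stau1 IP arrays lay below all control IP arrays for 2, beside 7.56% of all targets. They lay above them for 2, beside 6.6%. RPS26P11 among the lower and RPLP0P2 among the higher were detected on 0 arrays, RPL29P2 on 5 and RPL32P3 on 6. RPS26P11 lacked detection despite deposited signals of 4542 to 10569. RPLP0P2, RPL29P2 and RPL32P3 had signals of only 74 to 161, beside background medians of 78 to 90. RPL29P2 (-0.11 ± 0.03, SE) was among the lower and RPL32P3 (0.18 ± 0.07, SE) among the higher. RPL23AP7 was at -0.38 ± 0.30 (SE) and RPS26P10 at -0.45 ± 0.23 (SE), with overlapping groups.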
